A study of Mus musculus with 8 samples.

Results

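The 41 genes described here encode enzymes of DNA repair and kinases that signal DNA damage, and they were taken by symbol from the 23420 gene symbols counted in every library. They comprise 12 DNA glycosylases and nucleotide pool enzymes, 8 genes of the later steps of base excision and single-strand break repair, 6 of nucleotide excision repair, 7 of homologous recombination, 4 of end joining and 4 checkpoint kinases. RNA-seq was performed on mouse embryonic stem cells (ESCs) of a mixed 129 x C57BL/6 background, taken from blastocysts at day 5 before implantation and grown without feeder cells in serum and LIF. IPO13+/+ cells (wild type) and IPO13-/- cells (knockout of Importin-13, a nuclear transport receptor that carries proteins both into and out of the nucleus) were left untreated or were given 125 µM H2O2 for 1 h and 2 h of recovery in clean medium. Each of the 4 combinations of genotype and treatment is represented by 2 libraries, and the study asked how loss of IPO13 alters the transcriptional response to oxidative stress. How many ESC lines stand behind each genotype, and whether the 2 libraries of a group came from separate cultures, is not given in the sources used here. Genotype and line therefore cannot be told apart, and p-values measure only the spread between these libraries.

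Hydrogen peroxide oxidises bases and the sugar backbone of DNA. Damaged bases are cut out by glycosylases, after which an endonuclease opens the strand, a polymerase fills the gap and a ligase seals it, with PARP1 and the scaffold XRCC1 gathering these enzymes at the break. Bulky lesions are removed as a short stretch of the strand by nucleotide excision repair, while double-strand breaks are either rejoined end to end or copied from the sister chromatid by homologous recombination, and the kinases ATM and ATR with CHK1 and CHK2 relay the damage to the cell cycle and to p53. Many of these proteins are switched on by modification or recruitment, whereas the measurements here are of transcripts.

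Between 60397877 and 73789079 reads were counted on genes per library, so that the smallest level told from 0, taken as 3 counts, was 0.0407 to 0.0497 CPM (counts scaled to a common library total), a limit that covers counting error only. Levels are given as CPM after TMM scaling of the library totals ("normalized CPM"), and groups were compared with edgeR's quasi-likelihood test over 19424 genes at a Benjamini-Hochberg adjusted p (FDR) below 0.05. *Ipo13* itself had 4716 to 4928 counts in the IPO13+/+ libraries and 1555 to 1965 in the IPO13-/- libraries (log2 fold change -1.44, FDR = 9.5e-19, in untreated cells), so the transcript was reduced but not absent. The 10 markers of embryonic stem cells were all above 1 CPM in every library and summed to 8040 to 8210 CPM in untreated and 7660 to 7700 in treated IPO13+/+ libraries, and to 6920 to 7040 and 6830 to 6960 in IPO13-/- libraries. In contrast, 8 fibroblast or feeder markers summed to 6.3 to 9.32 CPM, 6 primitive endoderm markers to 15.7 to 23.8, 6 trophectoderm markers to 97.4 to 115 and 6 markers of primed epiblast and mesoderm to 261 to 348. The stem cell markers did not move as 1 set. Of these 10, 3 were higher and 5 lower in untreated IPO13-/- than IPO13+/+ cells, and 1 was higher and 2 lower after H2O2. Abundant genes weigh most in their sum. Mean CPM in untreated IPO13+/+ and IPO13-/- cells was 1940 and 1290 for *Dppa5a*, but 527 and 569 for *Nanog*. Within the trophectoderm list, 1 marker was higher and 3 were lower in untreated IPO13-/- than IPO13+/+ cells, and 2 were higher and 3 lower after H2O2. *Krt8*, a keratin gene, had 28.7 to 37.2 CPM in IPO13+/+ and 12.3 to 19.2 CPM in IPO13-/- libraries, and *Tfap2c*, a transcription factor gene, 38.2 to 44.1 and 63.6 to 79.9 CPM. The part of these marker differences in the results below was not tested, and in bulk RNA fewer cells of a type and less RNA per cell cannot be told apart.

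All 41 genes passed the filter of at least 1 count in any library, but 1 of them, *Tdg*, hardly did so. *Tdg*, a glycosylase for mismatched thymine and oxidised methylcytosine, had only 5 to 10 counts per library and a level of 0.0808 to 0.154 normalized CPM. Its transcript is nearly identical to those of 3 processed pseudogenes, at 98.7% over 2968 bases to *Tdg-ps*, 99.2% over 1194 bases to *Gm9855* and 99.3% over 1193 bases to *Gm5597*, so its count is uncertain and *Tdg* is left out of the ranges below. The other 40 genes had a mean of 2.79 to 781 normalized CPM over the 8 libraries. Levels per kilobase of annotated exons compare genes only roughly, since the length takes in every annotated exon, whether or not these cells use it. On this scale *Apex1*, the main abasic site endonuclease, was highest at 221 CPM per kilobase. *Parp1*, the chief sensor of strand breaks, stood at 148. *Xrcc5*, which encodes Ku80 of the end-joining machinery, stood at 65, and the flap endonuclease *Fen1* at 50.6. The lowest levels after *Tdg* were those of the 3 NEIL glycosylases, at 0.839 for *Neil3*, 1.06 for *Neil2* and 1.49 for *Neil1*. The 3 checkpoint kinases *Chek2*, *Chek1* and *Atm* lay close together at 17.4, 14.3 and 12.5, while *Atr* stood at 2.32. The annotated exons of *Atr* sum to 23629 bases. Without division by length *Atr* had 54.8 normalized CPM, against 52.3 for *Chek2*, 66.2 for *Chek1* and 129 for *Atm*. *Parp1* alone made up 28 to 28.8% of the summed CPM of the 41 genes in IPO13+/+ libraries and 25.1 to 25.5% in IPO13-/- libraries, and that sum was 2960 to 3110 CPM in the former and 2740 to 2840 CPM in the latter.

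**Figure D1:**
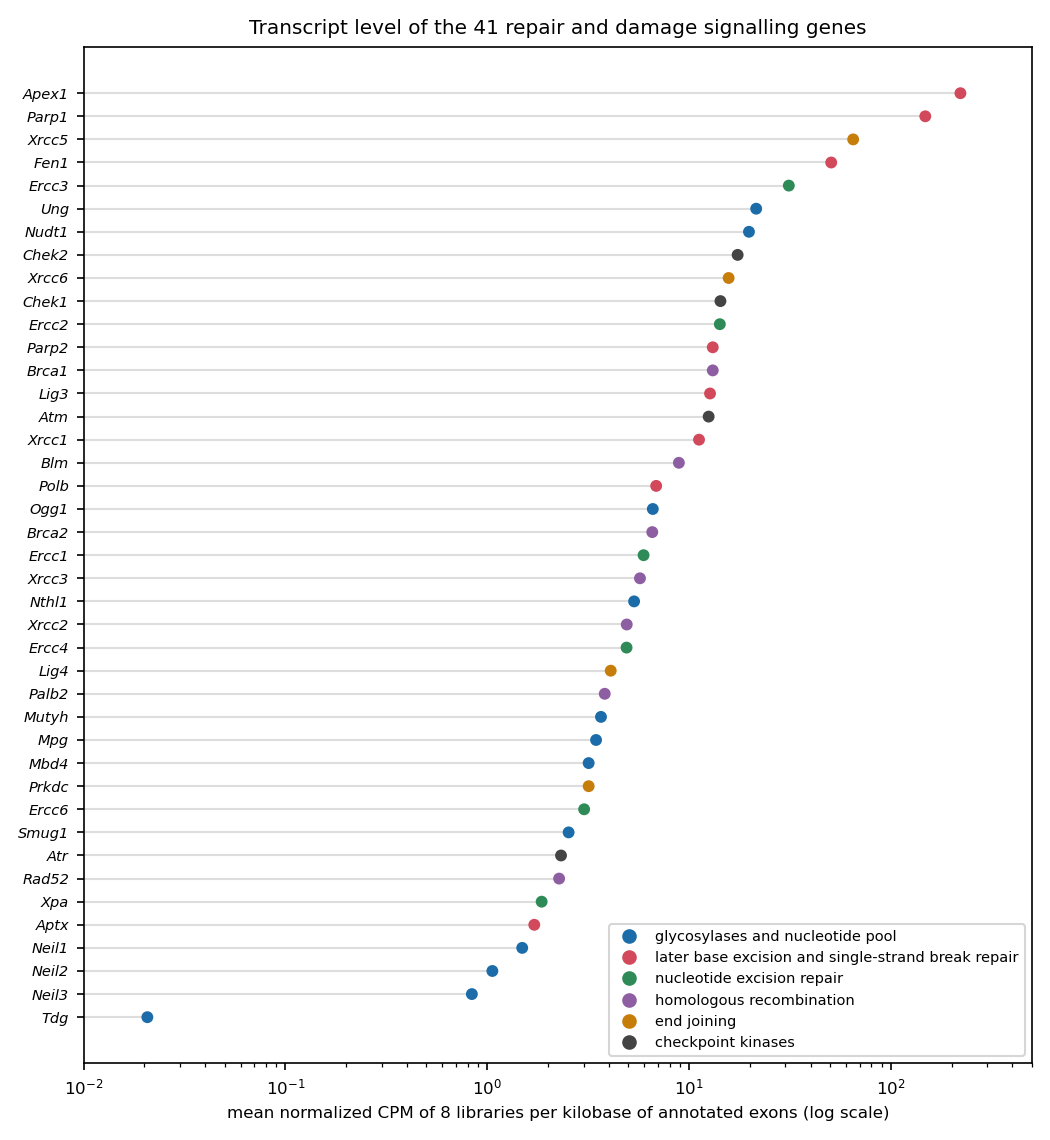
Mean normalized CPM over the 8 libraries per kilobase of annotated exons for each of the 41 genes, on a log axis, coloured by role. Points run from 0.0207 for *Tdg* to 221 for *Apex1*, with 4 glycosylases at the low end.

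Upstream sequences are given for 6 genes that passed the test for genotype in both conditions or for stress in both genotypes, as an aid to reading those results. SP1 and KLF4 are transcription factors whose transport by IPO13 the study examined, and GC boxes (GGGCGG, the element bound by SP1 and its relatives) are shown in capitals where they occur on either strand. The sequences are from RefSeq (GRCm38.p6), run 5′ to 3′ on the strand of the gene, and cover those of the 250 bases before the RefSeq start that lie outside every annotated exon. Of the 14 genes that qualify, 12 have a RefSeq promoter entry (*Neil2* and *Polb* were not matched), and the 6 with at least 200 such bases and a RefSeq start within 100 bases of the GENCODE M21 start are shown.
*Parp1*, chr1:180568641-180568890, plus strand: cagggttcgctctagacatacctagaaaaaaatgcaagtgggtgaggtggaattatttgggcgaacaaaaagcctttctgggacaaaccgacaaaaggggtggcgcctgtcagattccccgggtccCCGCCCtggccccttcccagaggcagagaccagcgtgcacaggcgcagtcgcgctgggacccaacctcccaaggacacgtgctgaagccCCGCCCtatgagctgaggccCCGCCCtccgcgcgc
*Ogg1*, chr6:113326748-113326971, plus strand: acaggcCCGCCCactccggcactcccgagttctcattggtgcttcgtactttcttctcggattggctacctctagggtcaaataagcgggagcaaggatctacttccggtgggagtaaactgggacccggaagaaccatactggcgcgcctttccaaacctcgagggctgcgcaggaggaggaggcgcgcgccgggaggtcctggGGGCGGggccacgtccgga
*Neil1*, chr9:57148306-57148555, minus strand: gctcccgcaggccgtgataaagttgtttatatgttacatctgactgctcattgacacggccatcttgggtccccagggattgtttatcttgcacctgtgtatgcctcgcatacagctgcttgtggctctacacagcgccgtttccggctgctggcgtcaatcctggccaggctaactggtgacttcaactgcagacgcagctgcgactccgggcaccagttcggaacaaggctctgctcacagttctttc
*Neil3*, chr8:53639066-53639315, minus strand: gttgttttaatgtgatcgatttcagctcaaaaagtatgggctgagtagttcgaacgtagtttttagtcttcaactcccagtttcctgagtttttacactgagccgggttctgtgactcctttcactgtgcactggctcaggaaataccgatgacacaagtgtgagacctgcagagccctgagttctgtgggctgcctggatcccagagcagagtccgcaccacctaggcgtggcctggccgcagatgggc
*Xrcc5*, chr1:72307171-72307420, plus strand: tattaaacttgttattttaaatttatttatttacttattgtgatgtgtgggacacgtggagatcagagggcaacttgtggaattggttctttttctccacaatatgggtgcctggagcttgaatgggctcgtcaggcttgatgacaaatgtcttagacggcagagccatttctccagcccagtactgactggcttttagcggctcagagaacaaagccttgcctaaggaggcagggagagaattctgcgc
*Brca2*, chr5:150522371-150522620, plus strand: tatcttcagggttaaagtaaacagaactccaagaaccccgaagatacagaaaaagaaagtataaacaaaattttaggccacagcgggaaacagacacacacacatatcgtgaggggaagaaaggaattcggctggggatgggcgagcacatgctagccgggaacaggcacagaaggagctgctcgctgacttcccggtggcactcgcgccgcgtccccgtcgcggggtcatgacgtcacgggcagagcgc
The *Parp1* sequence holds 3 GC boxes and the *Ogg1* sequence holds 2, while those of *Neil1*, *Neil3*, *Xrcc5* and *Brca2* hold none. Over the 250 bases before the start, a GC box was found in 22 of the 42 RefSeq promoter entries of 36 members (52.4%) and in 32.7% of all 32851 entries. The core of the KLF4 element, GGGTGTG (neither motif lies within the other), was found in 1 member entry, that of *Nthl1*, and in 6.9% of all entries. Matches describe these windows only, and base composition was not taken into account.

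Changes of the repair genes lay between -0.67 and 0.6 on the log2 scale in the 4 comparisons of groups. None of the 41 genes changed 2-fold in any comparison at an FDR below 0.05, against 2.9% of all genes for stress in IPO13+/+ cells, 2.89% for stress in IPO13-/- cells, 4.71% between the untreated genotypes, 4.56% between the genotypes after H2O2 and 0.144% for the difference between the stress responses. For a list of 41 genes a count of 0 is close to these shares, and it does not set the repair genes apart. The shares are over all genes, including those of low counts, and were not computed for genes of like level. Smaller changes did pass the test, and they are described by direction. After stress in IPO13+/+ cells, 3 genes were higher (*Xrcc1*, *Rad52*, *Nthl1*) and 2 lower (*Brca2*, *Lig3*), where 11.5% of all genes were higher and 13.8% lower. After stress in IPO13-/- cells, 5 were higher (these 3 with *Neil2* and *Apex1*) and 8 lower (*Lig3*, *Brca2*, *Palb2*, *Atr*, *Ercc2*, *Brca1*, *Atm*, *Xrcc6*), where 14.9% of all genes were higher and 14.4% lower. The 5 genes called in IPO13+/+ cells were called in the same direction in IPO13-/- cells.

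Between the genotypes 34.1% of the 41 genes passed the test before and 41.5% after stress, against 12.2% and 31.7% for stress in IPO13+/+ and IPO13-/- cells. In untreated IPO13-/- cells 4 genes were higher than in IPO13+/+ cells (*Neil3*, *Xpa*, *Ogg1*, *Xrcc2*) and 10 lower (*Neil1*, *Ercc4*, *Xrcc5*, *Neil2*, *Rad52*, *Parp1*, *Ercc1*, *Polb*, *Brca2*, *Chek1*), where 18.7% of all genes were higher and 19.4% lower. After H2O2, 3 were higher (*Neil3*, *Nthl1*, *Ogg1*) and 14 lower (*Neil1*, *Ercc4*, *Rad52*, *Xrcc5*, *Parp1*, *Neil2*, *Ercc1*, *Brca1*, *Xrcc1*, *Ercc6*, *Ercc2*, *Lig4*, *Palb2*, *Polb*), where 19.1% of all genes were higher and 17.5% lower. In both conditions 2 genes were higher (*Ogg1*, *Neil3*) and 8 lower (*Neil1*, *Neil2*, *Parp1*, *Polb*, *Ercc1*, *Ercc4*, *Rad52*, *Xrcc5*). Some of these calls depended on the method. *Ogg1* lost the untreated call with DESeq2, and the later call with limma-voom, DESeq2 and relative log expression factors. *Neil2* lost the later call with limma-voom and DESeq2. *Polb* lost the untreated call with library totals, and the later call with limma-voom, DESeq2 and library totals. Between the untreated genotypes, the excess of lower over higher calls depends on the scaling of the libraries. With library totals and no TMM factors, 12 genes were higher and 7 lower there. After H2O2 the counts with library totals were 5 and 12, so that lower calls still outnumbered higher ones. For stress in IPO13+/+ cells they were 6 and 2.

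The remaining 15 genes (*Mutyh*, *Ung*, *Mpg*, *Tdg*, *Smug1*, *Mbd4*, *Nudt1*, *Parp2*, *Fen1*, *Aptx*, *Ercc3*, *Xrcc3*, *Blm*, *Prkdc*, *Chek2*) passed the test in none of these 4 comparisons with edgeR and TMM factors. Of them, 8 (*Mutyh*, *Ung*, *Smug1*, *Parp2*, *Ercc3*, *Xrcc3*, *Blm*, *Prkdc*) passed in at least 1 alternative fit. The median absolute log2 fold change of the 41 genes was 0.09 and 0.11 for stress in IPO13+/+ and IPO13-/- cells, and 0.1 and 0.11 between the genotypes before and after stress. Over all genes tested it was 0.16, 0.19, 0.24 and 0.23, and low counts add noise to those values. In the same order of comparisons, the libraries of the 2 groups did not overlap for 25, 28, 26 and 29 of the 41 genes. Of all genes, 55.8%, 59.5%, 62.2% and 65% did not overlap. With 2 libraries against 2, lack of overlap is thus common, and it does not set the repair genes apart. Among the 10637 genes whose mean lay in the range of these members (2.79 to 781 CPM), 37.5%, 43.2%, 53.8% and 51.3% passed the test in the 4 comparisons, and 12.5%, 32.5%, 35% and 42.5% of the members without *Tdg* did. The share of the members called in either direction was thus below that of genes of like level in each comparison, a description with no test. By direction this did not hold between the genotypes after H2O2. There 35% of the members without *Tdg* were lower, against 24% of genes of like level, and 7.5% were higher, against 27.3%. In the other comparisons the members had the smaller share in both directions.

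**Figure D2:**
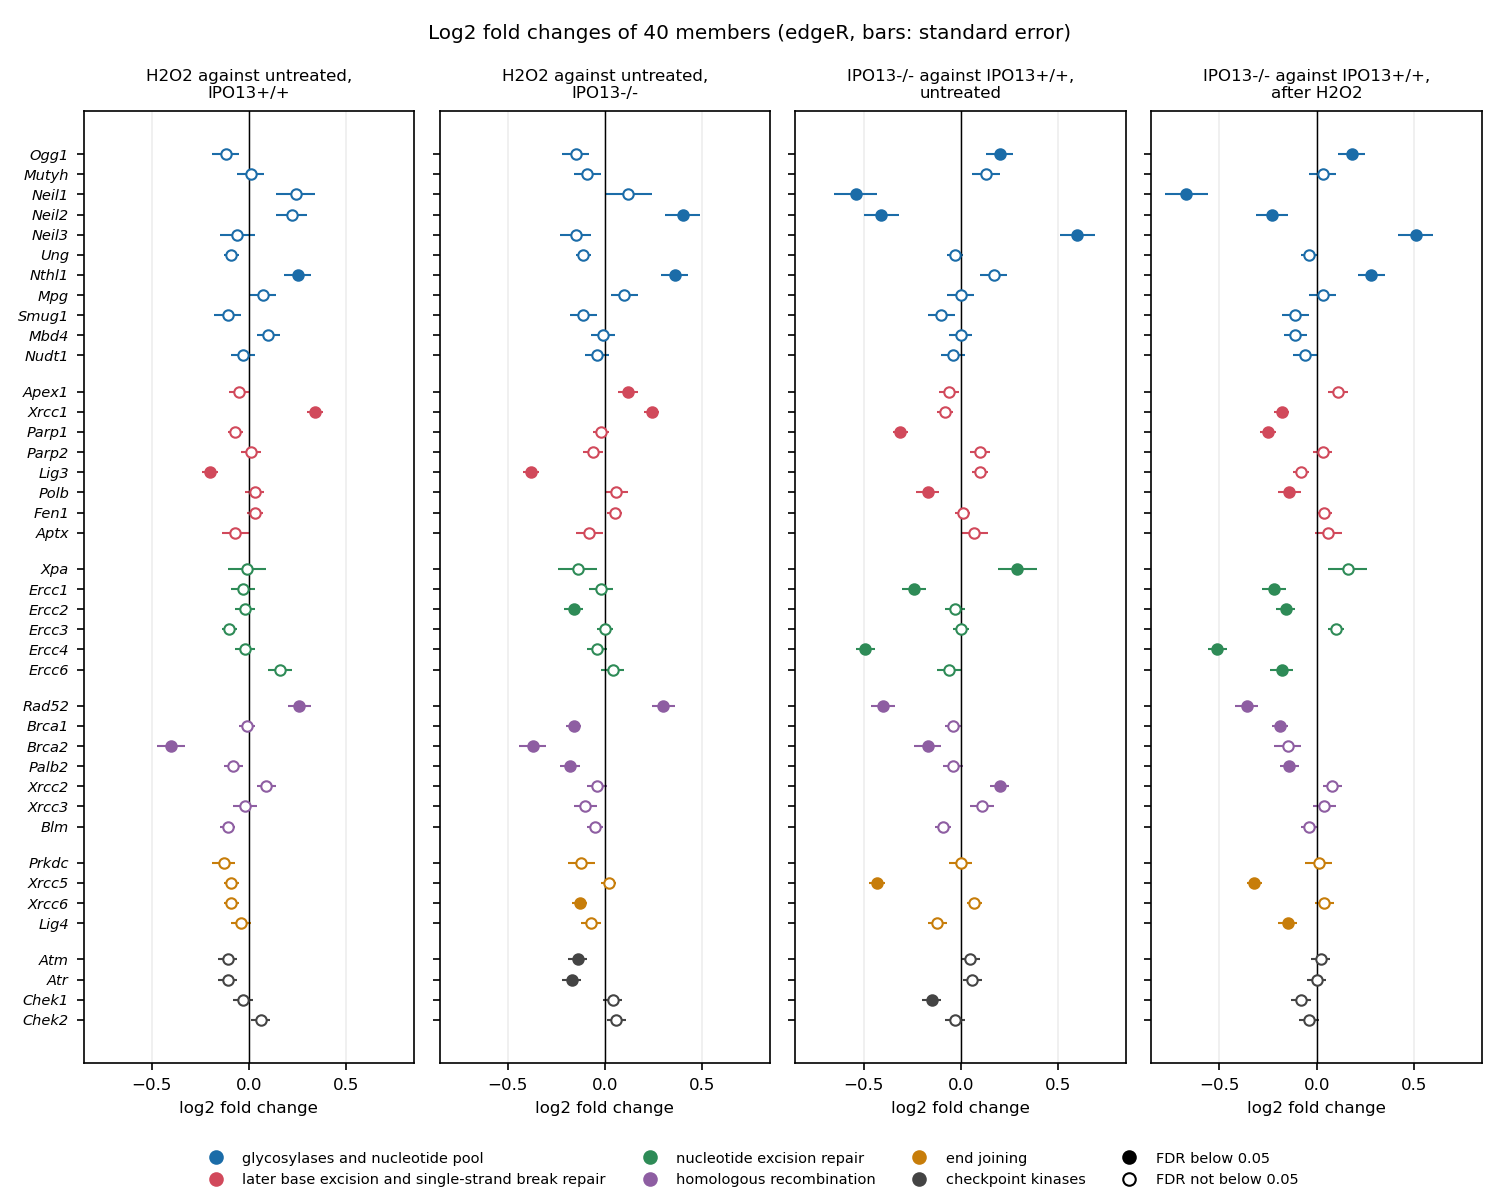
Log2 fold changes of 40 members (rows, grouped and coloured by role) in the 4 comparisons, from edgeR, with the standard error as a bar and filled points at an FDR below 0.05. All points lie between -0.67 (*Neil1*) and 0.6 (*Neil3*), and most sit within 0.2 of 0.

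The glycosylases showed the widest differences between genotypes. *Neil3*, a glycosylase for oxidised bases in single-stranded DNA (chr8:53586867-53639065), had 3.65 and 4.04 normalized CPM in untreated IPO13+/+ libraries, 3.7 and 3.69 after H2O2, 5.92 and 5.77 in untreated IPO13-/- libraries and 5.05 and 5.46 after H2O2. All 4 IPO13-/- libraries were above all 4 IPO13+/+ libraries, with log2 fold changes of 0.6 (standard error 0.09, FDR = 2.5e-06) before and 0.51 (0.09, FDR = 5.1e-05) after stress. *Neil1*, which removes oxidised pyrimidines and ring-opened purines (chr9:57142800-57148305), went the other way. It had 2.89 and 3.25 CPM without and 3.57 and 3.72 CPM with H2O2 in IPO13+/+ libraries. In IPO13-/- libraries it had 2.01 and 2.26 untreated and 2.39 and 2.2 after H2O2. The genotypes did not overlap, and *Neil1* was lower in IPO13-/- cells by the largest fold of the 41 genes, -0.54 (standard error 0.11, FDR = 0.00033) before and -0.67 (0.11, FDR = 1.6e-05) after stress, from 136 to 257 counts per library.

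*Neil2*, a glycosylase that works at transcribed genes (chr14:63182443-63193856), had 5.45 and 5.47 CPM in untreated and 6.08 and 6.63 in treated IPO13+/+ libraries. IPO13-/- libraries gave 4.21 and 3.98 without and 5.14 and 5.72 with H2O2. It rose after stress in IPO13-/- cells (0.4, standard error 0.09, FDR = 0.00092), and in IPO13+/+ cells the value was 0.22 (0.08) with an FDR of 0.051. It was lower in IPO13-/- cells before stress (-0.41, FDR = 0.00043) and after it (-0.23, FDR = 0.033), the latter losing the threshold without treated IPO13+/+ library 2 (FDR = 0.29) or treated IPO13-/- library 1 (FDR = 0.3). *Nthl1*, a glycosylase for oxidised pyrimidines (chr17:24632680-24638837), had 11.1 and 13.2 CPM in untreated and 14.4 and 14.6 in treated IPO13+/+ libraries. The values in IPO13-/- cells were 13.5 and 14.1 untreated and 17 and 18.2 after H2O2. Treated libraries were above untreated ones in each genotype, by 0.36 (standard error 0.07, FDR = 0.00019) in IPO13-/- cells and 0.25 (0.07, FDR = 0.0085) in IPO13+/+ cells, where the call needed untreated library 1 (0.13 and FDR = 0.2 without it, and 0.38 without untreated library 2) and both treated libraries (FDR = 0.055 and 0.074 without either).

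*Ogg1*, which cuts out 8-oxoguanine (chr6:113326972-113335068), had 13.2 and 14.9 CPM in untreated and 13.4 and 12.4 in treated IPO13+/+ libraries. For IPO13-/- cells they were 15.8 and 16.6 before and 14.4 and 14.8 after stress. It was higher in IPO13-/- cells by 0.2 (standard error 0.07, FDR = 0.014) before and 0.18 (0.07, FDR = 0.036) after stress, with no overlap between genotypes within a condition. The untreated call was lost without untreated IPO13+/+ library 1 (FDR = 0.21) or untreated IPO13-/- library 2 (FDR = 0.14), and the later call was lost when treated IPO13+/+ library 2 (FDR = 0.31) or any of the 4 IPO13-/- libraries was left out (FDR = 0.067 to 0.18). H2O2 moved *Ogg1* by -0.12 and -0.15 in the 2 genotypes, with FDRs of 0.2 and 0.094. *Camk1* overlaps 10.6% of the *Ogg1* exons on the opposite strand. The other enzymes of the group, *Mutyh*, *Ung*, *Mpg*, *Smug1* and *Mbd4*, which act on mispaired adenine, uracil, alkylated bases and deaminated bases, and *Nudt1*, which clears oxidised nucleotides from the pool, had log2 fold changes of -0.11 to 0.13 in the 4 comparisons and passed the test in none.

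Among the genes that act after the glycosylase, H2O2 shifted *Xrcc1* up and *Lig3* down, although the scaffold XRCC1 and the ligase LIG3 work as a pair. *Xrcc1* (chr7:24546289-24573440) had 60.7 and 59.8 CPM in untreated and 75.6 and 76.7 in treated IPO13+/+ libraries. In IPO13-/- libraries it had 57.5 and 56.1 untreated and 68.5 and 66.2 after H2O2. The rise was 0.34 (standard error 0.04, FDR = 9.4e-07) in IPO13+/+ and 0.24 (0.04, FDR = 8.8e-05) in IPO13-/- cells, and all treated libraries lay above all untreated ones. *Lig3* (chr11:82781108-82804274) had 97.3 and 99.3 CPM in untreated and 86 and 85.6 in treated IPO13+/+ libraries. IPO13-/- libraries gave 107 and 103 without and 81.8 and 80.4 with H2O2. It fell by 0.2 on the log2 scale (standard error 0.04, FDR = 0.00081) and by 0.38 (0.04, FDR = 5.9e-08), again with no overlap. *Rffl* overlaps 25.1% of the *Lig3* exons on the opposite strand, and whether reads were counted by strand is not given in the sources used here.

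*Parp1* (chr1:180568924-180601254) differed between the genotypes and did not pass the test for treatment. It had 895 and 860 CPM in untreated and 842 and 832 in treated IPO13+/+ libraries. The values in IPO13-/- cells were 712 and 707 untreated and 704 and 700 after H2O2. Every IPO13-/- library was below every IPO13+/+ library, by -0.31 (standard error 0.04, FDR = 9e-08) before and -0.25 (0.04, FDR = 2e-06) after stress. H2O2 gave -0.07 (FDR = 0.18) and -0.02 (FDR = 0.81). Both treated libraries lay below both untreated ones in each genotype, where 55.8% and 59.5% of all genes lacked overlap in either direction. *Parp2*, the smaller relative of *Parp1*, passed no test, at -0.06 to 0.1 in the 4 comparisons. *Polb*, the gap-filling polymerase, was lower in IPO13-/- cells by -0.17 (FDR = 0.015) before stress, lost without untreated IPO13+/+ library 2 (FDR = 0.12) or untreated IPO13-/- library 2 (FDR = 0.22), and by -0.14 after it, where the FDR lay just under the threshold and 5 of the 8 fits with a library left out did not reach it, all but those without treated IPO13-/- library 2 or an untreated IPO13+/+ library. *Apex1*, at 295 to 337 CPM in all libraries, rose by 0.12 in IPO13-/- cells (FDR = 0.047), a call that was lost without either library of untreated IPO13-/-, treated IPO13-/- or treated IPO13+/+ cells (FDR = 0.06 to 0.45). *Fen1* and *Aptx* passed the test in none of the 4 comparisons, at 0.01 to 0.05 and -0.08 to 0.07.

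**Figure D3:**
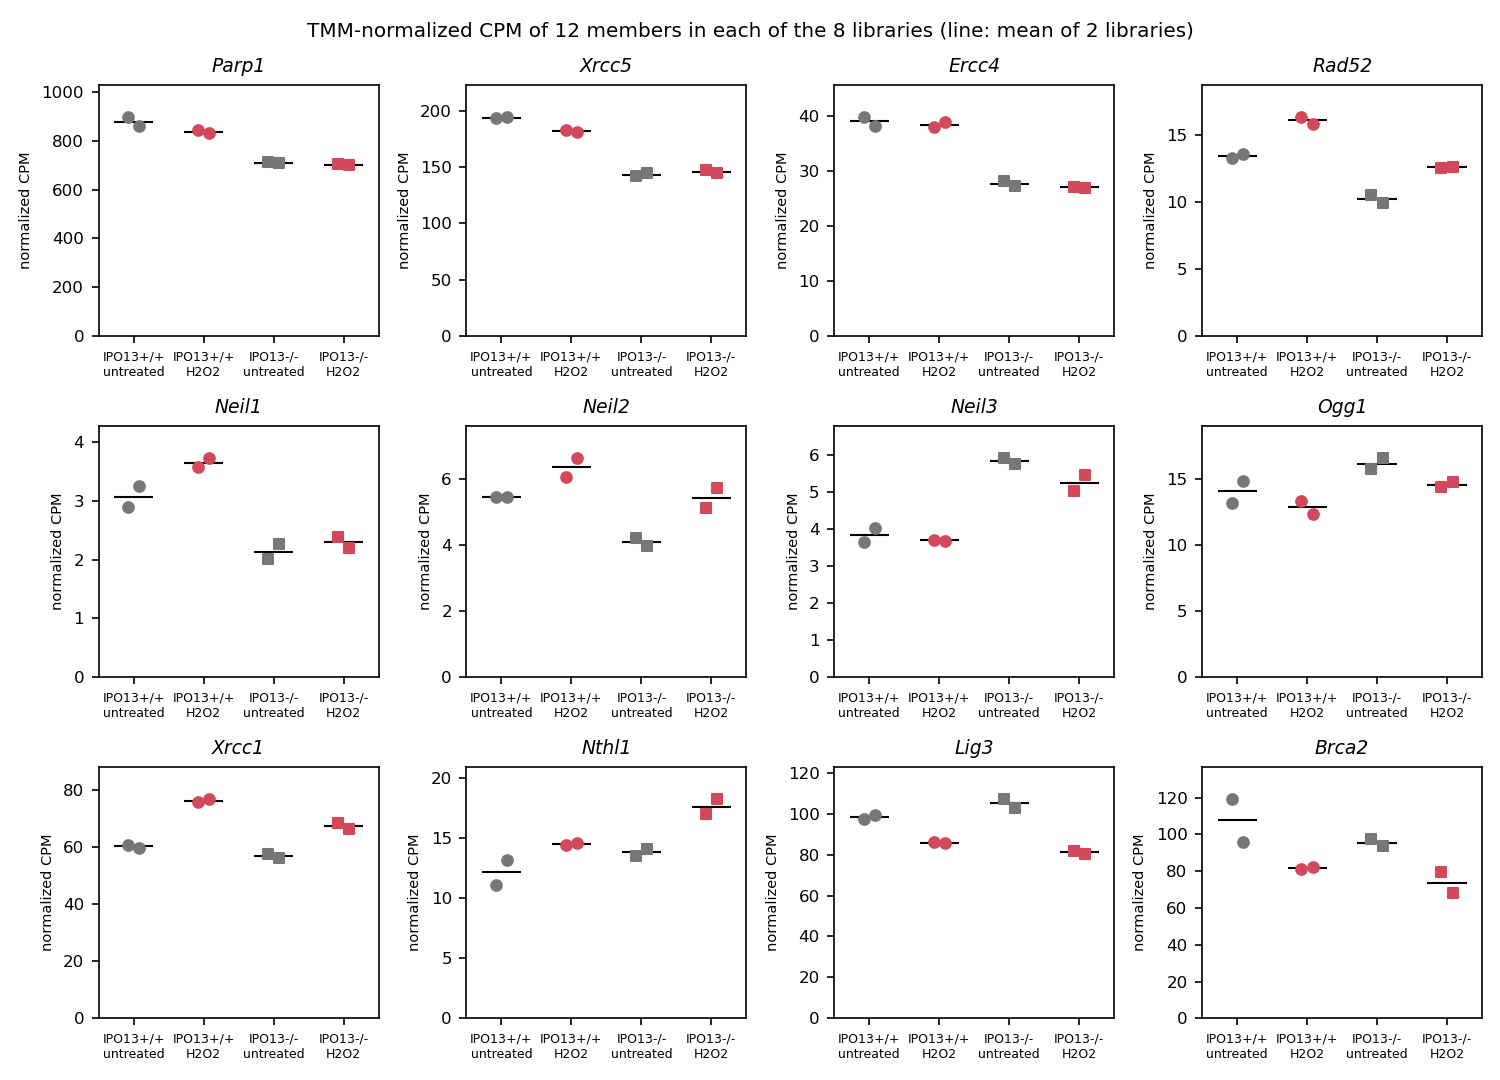
TMM-normalized CPM of 12 members in each library (points, 2 per group, circles for IPO13+/+ and squares for IPO13-/-, red after H2O2), with a line at the mean and axes that start at 0. *Parp1*, *Xrcc5*, *Ercc4*, *Neil1* and *Neil3* separate by genotype, and *Xrcc1*, *Lig3* and *Brca2* by treatment.

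In nucleotide excision repair 5 of the 6 genes passed the test for genotype in at least 1 condition. The share was 50% before and 66.7% after stress. It was 38.2% and 36.6% for all genes, and 53.8% and 51.3% for genes in the members' range of CPM. With only 6 genes these shares cannot be told apart. *Ercc4* and *Ercc1*, whose products form the nuclease that cuts 5′ of the lesion, were lower in IPO13-/- cells in both conditions. *Ercc4* (XPF, chr16:13109684-13150617) had 39.7 and 38.2 CPM in untreated and 37.9 and 38.8 in treated IPO13+/+ libraries. For IPO13-/- cells they were 28.2 and 27.3 before and 27.1 and 26.8 after stress. The genotypes lay well apart and the treatments together, with -0.49 (standard error 0.05, FDR = 5.5e-09) before and -0.51 (0.05, FDR = 3.7e-09) after stress. *Ercc1* was lower by -0.24 (FDR = 0.0017) and -0.22 (FDR = 0.0035), at 19.6 to 20.6 CPM in IPO13+/+ and 16.2 to 17.7 CPM in IPO13-/- libraries, and the calls were lost without untreated IPO13-/- library 1 (FDR = 0.056) and without treated IPO13-/- library 1 (FDR = 0.1). *Xpa*, the damage verification factor, had 3.11 and 3.4 CPM in untreated and 3.25 and 3.21 in treated IPO13+/+ libraries. In IPO13-/- libraries it had 3.71 and 4.3 untreated and 3.63 and 3.6 after H2O2. It was higher in untreated IPO13-/- cells by 0.29 (standard error 0.1, FDR = 0.02), which was lost without untreated IPO13+/+ library 1 (0.23, FDR = 0.14) or untreated IPO13-/- library 2 (0.19, FDR = 0.21).

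The TFIIH helicase gene *Ercc2* was level in 6 libraries, at 59.3 to 62.3 CPM, and lower in the 2 treated IPO13-/- libraries, at 53.9 and 54.7. It fell by 0.16 after stress in IPO13-/- cells (FDR = 0.0087) and was -0.16 against treated IPO13+/+ cells (FDR = 0.0057). The first call was lost without untreated IPO13-/- library 1 (FDR = 0.16) or either treated IPO13-/- library (FDR = 0.095 and 0.057), the second without treated IPO13+/+ library 1 (FDR = 0.13), and *Klc3* overlaps 17.8% of the *Ercc2* exons on the opposite strand. *Ercc6*, which couples repair to transcription, was lower in treated IPO13-/- than in treated IPO13+/+ cells by -0.18 (FDR = 0.026), a call lost in 5 of the 8 fits with a library left out (FDR = 0.086 to 0.23), all but those without treated IPO13-/- library 1 or an untreated IPO13+/+ library. *Ercc3*, the other TFIIH helicase gene, passed no test with edgeR and TMM factors. Its value of 0.1 in treated IPO13-/- against treated IPO13+/+ cells (FDR = 0.06) was past the threshold with limma-voom, library totals, filterByExpr and the replicate block.

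In homologous recombination, *Rad52* and *Brca2* moved in opposite directions after stress in both genotypes. *Rad52*, which anneals single strands (chr6:119902698-119922828), had 13.3 and 13.6 CPM in untreated and 16.3 and 15.8 in treated IPO13+/+ libraries. IPO13-/- libraries gave 10.5 and 9.89 without and 12.5 and 12.6 with H2O2. It rose by 0.26 (standard error 0.06, FDR = 0.0018) in IPO13+/+ and 0.3 (0.06, FDR = 0.00065) in IPO13-/- cells, and it was lower in IPO13-/- cells by -0.4 (FDR = 1e-05) before and -0.36 (FDR = 3e-05) after stress, so that the 4 groups did not overlap and treated IPO13-/- cells stood below untreated IPO13+/+ cells. *Rad52* was the only member called in all 4 comparisons.

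*Brca2*, a mediator of homologous recombination (chr5:150522630-150570329), had 119 and 95.6 CPM in untreated and 81.2 and 82.1 in treated IPO13+/+ libraries. The values in IPO13-/- cells were 97.5 and 93.5 untreated and 79.3 and 68.2 after H2O2. Treated libraries were below untreated ones in each genotype, by -0.4 (standard error 0.07, FDR = 6.1e-05) in IPO13+/+ and -0.37 (0.07, FDR = 0.00012) in IPO13-/- cells. Without untreated IPO13+/+ library 1 the former was -0.23 (FDR = 0.0018), and without untreated IPO13-/- library 1 the latter was -0.34 (FDR = 0.054). Libraries 1 and 2 also differed by transcript length. In untreated IPO13+/+ cells the log2 difference of library 1 from library 2 had a median of 0.1 for 1868 transcripts of at least 8000 bases and -0.07 for 1058 of under 2000 bases, all 7 members of that length were higher in library 1, and *Brca2*, with 13643 exon bases, differed by 0.32. The same held for all 7 in the untreated and treated IPO13-/- groups, where *Brca2* differed by 0.06 and 0.22. The stress comparison in IPO13-/- cells also had a trend with length, with a median log2 fold change of -0.05 for the long and 0.06 for the short transcripts. In IPO13+/+ cells these medians were -0.07 and -0.04. The part of these length differences in the calls was not tested. The genotype value of *Brca2* in untreated cells, -0.17 with an FDR of 0.048, was 0 without untreated IPO13+/+ library 1 and was lost in 7 of the 8 fits with a library left out, all but the one without untreated IPO13+/+ library 2 (-0.32).

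*Brca1*, a ubiquitin ligase that starts recombination (chr11:101488764-101551955), had 119 and 114 CPM in untreated and 116 and 114 in treated IPO13+/+ libraries. For IPO13-/- cells they were 115 and 111 before and 104 and 99 after stress. The treated IPO13-/- libraries were below the other 6, by -0.16 (standard error 0.04, FDR = 0.0063) against untreated IPO13-/- and -0.19 (0.04, FDR = 0.00093) against treated IPO13+/+ cells, the former being lost without untreated library 1 (FDR = 0.15) or treated library 2 (FDR = 0.16) of IPO13-/- cells. *Palb2*, the bridge between BRCA1 and BRCA2, was likewise lowest in the treated IPO13-/- libraries. It had 30.6 and 28.8 CPM without and 28.7 and 27.5 CPM with H2O2 in IPO13+/+ libraries. In IPO13-/- libraries it had 28.9 and 28.7 untreated and 26.2 and 24.8 after H2O2. It was -0.18 (standard error 0.05, FDR = 0.014) after stress in IPO13-/- cells and -0.14 (0.05, FDR = 0.045) against treated IPO13+/+ cells. The former was lost without either untreated library (FDR = 0.12 and 0.11) or treated library 2 (FDR = 0.22) of IPO13-/- cells, and the latter in 5 of the 8 fits with a library left out (FDR = 0.072 to 0.31), all but those without treated IPO13-/- library 1 or an untreated IPO13+/+ library. Of the remaining recombination genes, *Xrcc2* was higher in untreated IPO13-/- cells by 0.2 (FDR = 0.0024), while *Xrcc3* and the helicase gene *Blm* passed no test.

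Of the end-joining genes, *Xrcc5* (chr1:72307421-72394952) differed strongly between genotypes and its partner *Xrcc6* did not pass that test, although Ku80 and Ku70 bind DNA ends as a dimer. *Xrcc5* had 193 and 194 CPM in untreated and 183 and 181 in treated IPO13+/+ libraries. IPO13-/- libraries gave 142 and 145 without and 147 and 145 with H2O2. All IPO13-/- libraries lay below all IPO13+/+ libraries, by -0.43 (standard error 0.04, FDR = 1.2e-09) before and -0.32 (0.04, FDR = 2.4e-07) after stress. *Xrcc6*, at 66.4 to 76.3 CPM in all libraries, was 0.07 and 0.04 between the genotypes (FDR = 0.22 and 0.59). It fell by 0.13 after stress in IPO13-/- cells (FDR = 0.027), a call lost when any of the 4 IPO13-/- or the 2 treated IPO13+/+ libraries was left out (FDR = 0.051 to 0.34). *Prkdc*, the catalytic subunit of the DNA-dependent kinase (chr16:15637866-15842235), had 47.5 and 40.3 CPM in untreated and 39.9 and 40.1 in treated IPO13+/+ libraries. The values in IPO13-/- cells were 46.5 and 40.9 untreated and 42.2 and 38.2 after H2O2. The groups differed by less than the 2 untreated libraries of a genotype, with -0.13 and -0.12 for stress and 0 and 0.01 for genotype, none past the test. With the replicate block both stress values of *Prkdc* passed it as lower. *Lig4*, the ligase of this pathway, was -0.15 in treated IPO13-/- cells (FDR = 0.034), which was lost without any 1 of the 4 treated libraries (FDR = 0.052 to 0.22).

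*Atm*, which answers double-strand breaks and is also activated by oxidation (chr9:53439149-53536740), had 139 and 125 CPM in untreated and 120 and 125 in treated IPO13+/+ libraries. For IPO13-/- cells they were 144 and 130 before and 130 and 119 after stress. Library 1 was the higher one in 3 of the 4 groups, and the fall of 0.14 after stress in IPO13-/- cells (standard error 0.05, FDR = 0.048) became -0.06 without untreated library 1 and -0.07 without treated library 2 of that genotype. It was also lost without untreated IPO13-/- library 2 (FDR = 0.073) and either treated IPO13+/+ library (FDR = 0.074). *Atr*, the kinase for stalled forks, fell by 0.17 in IPO13-/- cells (FDR = 0.01) and was -0.11 in IPO13+/+ cells (FDR = 0.11), the call being lost without either untreated library (FDR = 0.2 and 0.073) or treated library 2 (FDR = 0.25) of IPO13-/- cells. *Chek1*, the effector kinase of ATR (chr9:36708482-36727065), had 68.9 and 70.6 CPM in untreated and 69.2 and 67 in treated IPO13+/+ libraries. In IPO13-/- libraries it had 63.4 and 61.9 untreated and 66.6 and 61.8 after H2O2. It was lower in untreated IPO13-/- cells by -0.15 (standard error 0.05, FDR = 0.0087), which was lost without either of these libraries (FDR = 0.079 and 0.11), and after stress the value was -0.08 (FDR = 0.17). *Chek2* was -0.04 to 0.06 in the 4 comparisons. *Atm* and *Atr*, with 10338 and 23629 exon bases, are among the long transcripts described with *Brca2*. The part of that length trend in their falls was not tested.

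As counts, the calls rested on single libraries to an unequal degree. The 8 genes lower after stress in IPO13-/- cells became 1 without untreated IPO13-/- library 1, 4 without untreated library 2 and 3 without treated library 2. The 2 lower after stress in IPO13+/+ cells became 4 and 6 without untreated IPO13+/+ library 1 and 2, and the 3 higher became 5 without either treated IPO13-/- library. The 4 higher in untreated IPO13-/- cells became 2 without untreated IPO13-/- library 2. After H2O2 the 14 lower became 9 without either treated IPO13+/+ library, and the 3 higher became 5 without either untreated IPO13+/+ library.

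Whether any repair gene responded differently to H2O2 in the 2 genotypes depended on the fit. The difference between the stress responses (interaction of genotype and treatment) was past the threshold for 0 of the 41 genes with edgeR, limma-voom and DESeq2 alike, where 2.01% of all genes were higher and 0.705% lower in edgeR. In edgeR 4 genes had an unadjusted p below 0.05, namely *Lig3* (-0.18, standard error 0.06), *Apex1* (0.17, 0.07), *Brca1* (-0.15, 0.06) and *Ercc2* (-0.14, 0.06), with FDRs of 0.11, 0.18, 0.23 and 0.31. Limma-voom gave 5 genes at that limit and DESeq2 gave 3. With a replicate block added in edgeR, *Apex1* (higher) and *Lig3* (lower) passed the threshold, and with library totals *Lig3* and *Brca1* (both lower) did. Without untreated IPO13+/+ library 1, *Apex1* and *Ercc6* passed it. A p that misses the threshold does not show equal responses. The median interaction was 0.09 for transcripts of under 2000 bases, among them *Apex1* with 1422, and 0.01 for those of at least 8000. The part of this in the values of single members was not tested. Without *Tdg* the interaction lay between -0.18 and 0.18 on the log2 scale for all members.

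The same treatment raised p53 target genes. Of 20 p53 targets, a list chosen with results of these data known, 18 were higher and 0 lower after stress in IPO13+/+ cells (19 had an unadjusted p below 0.05), with a median log2 fold change of 0.8, and 18 were higher and 1 lower in IPO13-/- cells, with a median of 0.94. In the plot of the responses in both genotypes these genes run up to 2.72 and 3.1 (*Fas*, a death receptor), while the medians of the 41 repair genes were -0.03 and -0.04. *Fas* had only 16 and 6 counts in untreated IPO13+/+ and 15 and 3 in untreated IPO13-/- libraries, so the size of its rise is uncertain. *Cdkn1a*, the cell cycle inhibitor p21, rose by 0.81 and 1.31, and *Mdm2*, the ubiquitin ligase of p53, by 1.02 and 1.3. Of 25 genes of replication licensing and the fork, 1 was higher and 3 lower in IPO13+/+ cells and 6 were higher and 3 lower in IPO13-/- cells, with medians of -0.05 and 0.01.

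**Figure D4:**
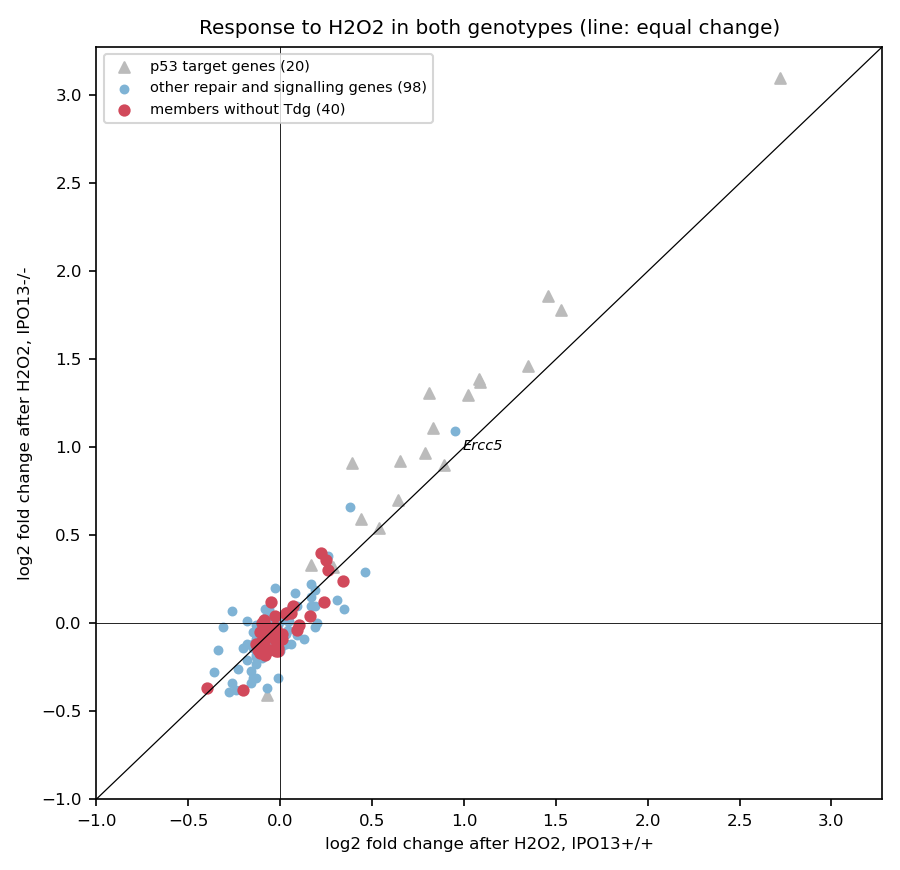
Log2 fold change after H2O2 in IPO13+/+ cells (horizontal) against IPO13-/- cells (vertical) for 40 members, 98 other repair and damage signalling genes and 20 p53 target genes, with a line of equal change. The members lie between -0.4 and 0.4 on both axes, and most of the p53 targets reach higher values.

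Of 16 members, the start lies within 1000 bases of the start of a gene read from the opposite strand. *Nthl1* begins 50 bases from *Tsc2*, a tumour suppressor of the mTOR pathway, which was 0 and 0.07 after stress in the 2 genotypes (FDR = 1 and 0.26). *Xrcc1* begins 171 bases from *Pinlyp*, which rose by 1.54 (FDR = 0.0098) and 2.39 (FDR = 0.007) from only 1 to 28 counts per library. *Brca1* begins 194 bases from *Nbr1*, an autophagy receptor, which fell by 0.16 after stress in IPO13+/+ cells (FDR = 0.0051) and was -0.1 in IPO13-/- cells (FDR = 0.066). *Atm* begins 307 bases from *Npat*, a regulator of histone genes, which fell by 0.14 in IPO13+/+ cells (FDR = 0.038) and was -0.13 in IPO13-/- cells (FDR = 0.052). *Dctn5*, 56 bases from *Palb2*, was -0.07 and 0.01 for stress, where *Palb2* was -0.08 and -0.18, and *Abhd13*, 21 bases from *Lig4*, fell after stress in IPO13-/- cells (by 0.13, FDR = 0.041).

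Several partners differed where the member did not. *Rpph1*, the RNA of ribonuclease P, begins 74 bases from *Parp2* and rose by 0.67 (FDR = 7.1e-05) and 1.26 (FDR = 1.9e-10) after stress. The study prepared its libraries with an mRNA kit and *Rpph1* is annotated as a ribozyme, so its counts may not follow its level. *Zfyve21*, 297 bases from *Xrcc3*, rose by 0.52 (FDR = 5.3e-07) and 0.54 (FDR = 2.4e-07). *Ift122*, a ciliary transport gene 99 bases from *Mbd4*, was lower in IPO13-/- cells by -0.61 in both conditions (FDR = 3.7e-09 and 4.3e-09). *Osgep*, 75 bases from *Apex1*, was -0.2 in untreated IPO13-/- cells (FDR = 0.0012), *Hscb*, 202 bases from *Chek2*, was 0.37 in treated IPO13-/- cells (FDR = 0.00038), and *Toe1*, 83 bases from *Mutyh*, was -0.16 and -0.15 between the genotypes (FDR = 0.011 and 0.021) and -0.13 after stress in IPO13+/+ cells (FDR = 0.046). *Tmem258*, which shares 5.4% of the *Fen1* exons, rose by 0.17 in IPO13-/- cells (FDR = 0.014) and *Mad1l1*, beside *Nudt1*, fell by 0.13 there (FDR = 0.036), while *Mcm4*, beside *Prkdc*, passed no test and *1700065D16Rik*, which overlaps the start of *Atr*, had an FDR of 0.097 or more.

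Among 98 further genes of repair and damage signalling, 10 were higher and 19 lower after stress in IPO13+/+ cells, 7 and 26 in IPO13-/- cells, 20 and 17 between the untreated genotypes and 27 and 14 after H2O2. As shares these are 10.2% and 19.4%, 7.14% and 26.5%, 20.4% and 17.3%, and 27.6% and 14.3%. For all genes they were 11.5% and 13.8%, 14.9% and 14.4%, 18.7% and 19.4%, and 19.1% and 17.5%. By pathway, in that order of comparisons, base excision genes (13) had 1 higher and 1 lower, 1 and 0, 1 and 1, and 2 and 2. Nucleotide excision genes (17) had 1 and 3, 2 and 2, 4 and 6, and 6 and 2, and recombination genes (25) had 5 and 4, 2 and 12, 11 and 2, and 10 and 4. End-joining genes (5) had 1 and 0, 0 and 0, 1 and 0, and 1 and 0, and mismatch repair genes (7) had 0 and 3, 0 and 3, 1 and 3, and 1 and 1. Fanconi anaemia genes (12) had 0 and 2, 0 and 3, 0 and 2, and 1 and 2, and damage signalling genes (19) had 2 and 6, 2 and 6, 2 and 3, and 6 and 3. The genes named here have the largest rise or fall past the test in their pathway. *Ercc5*, the nuclease that cuts 3′ of the lesion in nucleotide excision repair, had 39.3 and 38.1 CPM in untreated and 75 and 74.2 in treated IPO13+/+ libraries. IPO13-/- libraries gave 33.6 and 33.2 without and 72.2 and 70.3 with H2O2. It rose by 0.95 (standard error 0.05, FDR = 2.8e-15) and 1.09 (0.05, FDR = 1.4e-16), and it was the only one of the 98 with a 2-fold change past the test in any of these 4 comparisons.

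In the other pathways the rises and falls after stress were smaller. *Rad9a*, of the 9-1-1 clamp that activates ATR, rose by 0.38 and 0.66, *Rad51d*, of homologous recombination, by 0.46 and 0.29, *Mgmt*, which removes alkyl groups from guanine, by 0.26 and 0.38, and *Poll*, an end-joining polymerase, by 0.31 in IPO13+/+ cells. Falls were those of *Etaa1*, an activator of ATR (-0.34), *Pms1*, of mismatch repair (-0.36), *Rad51b* (-0.31), *Fancf*, of the Fanconi anaemia core (-0.26), *Cdk7*, of TFIIH (-0.18), and *Pole4* (-0.13) in IPO13+/+ cells, and of *Mlh3*, of mismatch repair (-0.39), *Mdc1*, an adaptor at breaks (-0.38), *Rmi2*, a partner of BLM (-0.37), *Fancf* (-0.34) and *Ccnh*, of TFIIH (-0.14), in IPO13-/- cells. In untreated IPO13-/- cells *Rad51c* (0.6), *Dclre1c*, the Artemis nuclease (0.37), *Cdc25c*, a mitotic phosphatase (0.33), *Alkbh3* (0.3), *Ccnh* (0.3) and *Pms1* (0.2) were higher, and *Ercc5* (-0.21), *Mre11a* (-0.19), *Fanci* (-0.19), *Tdp2* (-0.17) and *Cdc25a* (-0.15) lower than in IPO13+/+ cells. After H2O2 *Rad51b* (0.46), *Alkbh3* (0.39), *Cdc25c* (0.36), *Ccnh* (0.31), *Pms1* (0.28), *Dclre1c* (0.2) and *Ube2t* (0.18) were higher, and *Slx4* (-0.37), *Uvssa* (-0.34), *Fancm* (-0.23), *Rad1* (-0.22) and *Aplf* (-0.18) lower. The homologous recombination genes outside the 41 thus had 11 of 25 higher (44%) and 2 lower (8%) in untreated IPO13-/- cells, where the 7 within had 1 higher and 2 lower. Of all genes 18.7% were higher and 19.4% lower, and of genes in the members' range of CPM 25.2% and 28.6%. This pathway and comparison are picked from the several listed above, and the difference between the lists was not tested.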

How the data were processed

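RNA-seq counts of 8 libraries in 4 groups were analysed. The authors mapped the reads to mm10 and deposited raw counts and CPM for 23420 gene symbols. The submitters' processing notes name bcl2fastq, STAR 2.3.1, HTSeq and limma, and the gene annotation and strand setting are not given in the sources used here. The CPM were only checked against the counts. Genes at 0 in every library were dropped, which left 19424, and edgeR 4.0.16 (R 4.3.3) was used for TMM scaling and the quasi-likelihood test in 1 model, with Benjamini-Hochberg adjustment over all genes. Standard errors are the absolute log2 fold change over the square root of F. Limma-voom (limma 3.58.1), DESeq2 1.42.0 and other settings were alternatives, and the fits were tested on simulated data. The 2-fold limit was that of the study's methods. The smallest p of an exact permutation test is 0.333 for 2 libraries against 2.

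The members and gene lists were chosen with earlier results of these data known. Values in every library are given for the 3 largest called rises and falls per comparison among members with at least 10 counts in every library, and for *Parp1*, *Xrcc1*, *Ogg1*, *Atm*, *Chek1*, *Brca1* and *Prkdc*. From the other lists the largest called rise and fall per comparison are named, with each nearest divergent gene within 1000 bases. One gene that this rule names is not reported here. Positions are from GENCODE M21 (GRCm38), which matched 41 of 41 members and 21751 of 23420 symbols. The mean chi-square per gene between replicates, a ratio of squared differences to sampling variance, was 15 in untreated and 2.26 in treated IPO13+/+ cells. In IPO13-/- cells it was 4.58 untreated and 6.59 after H2O2.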

Additional observations from a re-analysis of the deposited data

Results flagged for a closer look

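No member was flagged, and 4 genes of the other repair lists were. Their response to H2O2 differed between the genotypes by the interaction term of edgeR at an FDR below 0.05. They are 4.08% of the 98 genes of those lists, where 2.71% of all genes and 4.43% of genes in the members' range of CPM passed. The number of such genes is thus near that of other genes, and their values under the alternative fits are not given here. *Rad9a*, of the 9-1-1 clamp, had 30.2 and 31.3 normalized CPM in untreated and 40.6 and 39.5 in treated IPO13+/+ libraries, and IPO13-/- libraries gave 29.6 and 31.7 without and 48.2 and 48.8 with H2O2 (interaction 0.28 on the log2 scale, FDR = 0.025). *Gtf2h1*, a subunit of TFIIH, had 167 to 175 CPM in the 4 IPO13+/+ libraries, 173 and 170 without and 200 and 193 with H2O2 in IPO13-/- libraries (0.23, FDR = 0.026). *Slx4*, a scaffold for nucleases, had 49.1 and 45.9 CPM in untreated and 60.8 and 60.1 in treated IPO13+/+ libraries, and IPO13-/- libraries gave 45.7 and 43 without and 48.2 and 45.7 with H2O2 (-0.27, FDR = 0.033). *Gen1*, a resolvase of recombination junctions, had 20 to 20.9 CPM in the IPO13+/+ libraries, and IPO13-/- libraries gave 23.8 and 23.1 without and 18.6 and 19.2 with H2O2 (-0.3, FDR = 0.03).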

How the results depend on the processing

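Of the 49 calls of single members, 0 changed direction, 26 stayed past the threshold in all 14 alternatives and 36 in the 6 that left out no library. DESeq2 lost 10, limma-voom 8, library totals 6, the filterByExpr filter 3 and relative log expression factors 1. A 2-fold limit left 0 members in each direction of each comparison. Deviations of same-numbered libraries correlated at 0.25 to 0.54 in the 3 pairs among untreated IPO13+/+ and the 2 IPO13-/- groups, and at -0.06 to 0 in the 3 pairs with treated IPO13+/+ libraries. The deviations thus ran alike in 3 of the 4 groups, short of the rule that every pair exceed 0.1. Those 3 groups also share the difference by transcript length described for *Brca2*. Whether the library number stands for a common batch was not tested. Adding a replicate block to the model lost 0 calls and gave 5 higher and 7 lower for stress in IPO13+/+ cells, 5 higher after H2O2 between genotypes, and 1 higher and 1 lower for the interaction.

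For stress in IPO13+/+ cells the higher members numbered 5 with relative log expression factors, 6 with library totals and 5 with filterByExpr, and the median log2 fold change was 0.01 with library totals and 0 with filterByExpr. For stress in IPO13-/- cells the median was -0.08 with library totals. Between untreated genotypes the higher members numbered 2 with DESeq2, 12 with library totals and 7 with filterByExpr, with medians of 0.05 (library totals) and -0.02 (filterByExpr). After H2O2 they numbered 5 with library totals, and the median was -0.06 with DESeq2 and with relative log expression factors. For the interaction, library totals gave 2 lower members and a median of -0.09. The causes were not tested.

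With 1 library left out, a group with a lone library is assumed to vary like the others. The counts then ran from 2 to 5 higher and 2 to 6 lower for stress in IPO13+/+ cells, 4 to 5 and 1 to 10 in IPO13-/- cells, 2 to 6 and 7 to 11 between untreated genotypes, 2 to 5 and 9 to 15 after H2O2, and 0 to 1 and 0 to 1 for the interaction, with medians of -0.04 to -0.01, -0.04 to -0.03, -0.03 to -0.01, -0.06 to -0.04 and -0.04 to 0 in that order. Among the members only *Tdg*, at 5 to 10 counts per library, lay near the floor. Its near-identical pseudogenes make that count uncertain, and whether more reads would raise it was not tested.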
